A study of Mus musculus with 14 samples.

Results

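B-1a cells of the peritoneal cavity from wild-type mice were profiled on 7 one-colour Agilent mouse arrays, out of 14 arrays in the study. The 7 were taken by their genotype label, WT. The study names 2 sets of experiments. Arrays were assigned to them here by the numbering style of their titles, since no label gives the set of an array. Set 1 was taken as 3 arrays numbered 2, 3 and 4, and set 2 as 4 arrays numbered 1 to 4. The other 7 arrays, from mice lacking Bmi1, were not compared here. No treatment, strain, age, sex or sorting gate was given for the wild-type mice, and the labels do not say whether each array was a separate animal or a pool. Any p-value below therefore reflects spread among arrays alone, which can be technical.

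The B-1a subset of B lymphocytes forms largely in fetal and neonatal life and then renews itself in the body cavities. These cells carry the surface protein CD5, secrete much of the natural IgM of the blood, and respond quickly to microbial products through Toll-like receptors. Their receptors are skewed toward self and bacterial antigens, and inhibitory molecules such as CD5 and Siglec-G dampen their antigen receptor signal.

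Each level below is log2 of the processed spot signal minus the 75th percentile of gene probes on its array, so that 1 unit is a doubling of signal and 0 is the array's 75th percentile. A probe was called above background where the scanner software marked it so. Levels rank probe signals and not RNA molecules, because probes differ in affinity and in how well their target is labelled. For each gene named, the lowest, the median and the highest of the 7 array levels are given in that order unless stated otherwise. Between 43.7% and 63.1% of the 59305 gene spots of an array were above background, no spot was saturated, and at most 1.30% of 308 negative control spots passed. The lowest share was on set 1 replicate 2. Across 33235 genes the pairwise Pearson correlation was 0.82 to 0.94 for the 9 pairs within a set and 0.81 to 0.92 for the 12 pairs between sets. These are correlations over genes on shared probes, given as a description.

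The brightest probes of the wild-type arrays were set apart by their letters. The windows below, 30 bases of 60-base probes read 5′ to 3′ with the positions of the whole probes in mm9, show the repeats, and the capitals mark the dinucleotide run. The other Sept3 probe and the probe of Unc5a are shown for contrast.
Sp110, chr1:87473677-87473736, minus strand: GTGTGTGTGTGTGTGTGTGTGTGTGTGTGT
Hexim2, chr11:103001094-103001153, plus strand: acacgCACACACACACACACACACAtgtat
Dcaf12l2, chrX:41719459-41719518, minus strand: GAGAGAGAGAGAGAGAGAGAGAGAtttcta
Unc5a, chr13:55107318-55107377, plus strand: aatgtaaataaatTATATATATATATtgct
Sept3, chr15:82121415-82121474, plus strand: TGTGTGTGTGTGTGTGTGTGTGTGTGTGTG
Sept3, other probe, chr15:82122428-82122487, plus strand: cctcttttagcctctatgagcatggtgtac

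Probe level climbed with the length of the run. Probes whose longest dinucleotide run was at most 6 bases had a median level of -3.06 (52451 probes), those with runs of 11 to 12 bases a median of 2.62, and those with runs of 31 bases or more a median of 10.51 (24 probes). All 24 of the last group were above background on all 7 arrays, against 28.6% of the first. The 122 probes holding GTGTGTGTGTGT had a median of 9.37 and all were above background on all 7 arrays. The 62 holding CACACACACACA had a median of 8.11, the 29 holding GAGAGAGAGAGA 4.67 and the 21 holding TCTCTCTCTCTC 2.44. The 13 holding TATATATATATA had a median of -3.70, and 5 of them were above background on all 7. The motifs were searched in either phase on the probe strand, on which GT and CA runs are each other's complement. They were found in 0.219%, 0.111%, 0.0521%, 0.0377% and 0.0233% of the 55681 probes of the same length.

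**Figure D1:**
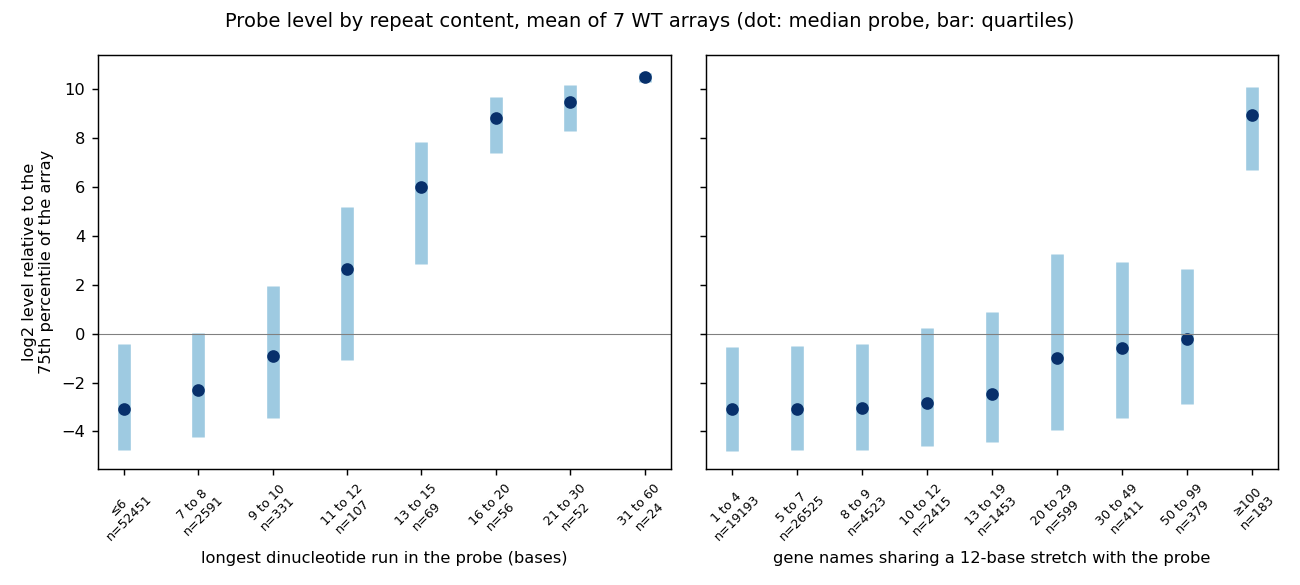
Probe level (log2 relative to the array's 75th percentile, mean of 7 wild-type arrays) against the longest dinucleotide run in the probe, left, and the number of gene names whose probes share a 12-base stretch with it, right. Dots are medians over probes, bars are quartiles and n is the number of probes. Medians climb from -3.06 at runs of up to 6 bases to 10.51 at 31 or more, and the group sharing a stretch with 100 or more names stands at 8.94.

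Within genes the same contrast held. For 64 genes the array carried a probe with a GT run and another probe without a repeat, and the run probe was brighter in 64 of 64, by a median of 9.98. The 64 run probes had a median level of 9.49 and the other probes -2.31. Of the 64 genes, 23 had another probe above background on all 7 arrays, a share near the 34.0% of all genes that had a probe without a repeat. Sept3, a septin GTPase gene best known in neurons, had a mean level of 10.69 on its run probe and -5.21 on the other probe printed above. Sp110, a nuclear body protein gene, had 5.19 on its best other probe and was brighter by 5.82 on its run probe. The run probes were also steady, with a median SD over the 7 arrays of 0.37. Levels of these probes are not read here as levels of the genes named on them.

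A probe was called a repeat probe where a stretch of 12 bases, on either strand, was found in probes of more than 12 gene names, and 3025 probes (5.43%) met that rule. With all probes, 98 of the 100 highest genes stood on a repeat probe. All results below are without them, unless stated, on the 33311 genes that had another probe. Genes carried by repeat probes only, among them Prdm1, Cd22, Ciita and Cxcr4, are therefore not counted in the lists below. The rule was chosen after seeing the data. In the plot of level by repeat content the second panel shows where it falls, with medians of -2.83 at 10 to 12 names and -2.47 at 13 to 19.

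Of the 33311 genes, 11310 (34.0%) had a probe above background on all 7 wild-type arrays, 7047 (21.2%) on none, and 14954 lay in between. With repeat probes included the counts were 12454 of 34821 genes (35.8%) and 7163 (20.6%). In 11167 genes the brightest probe itself was above background on all 7. Such genes, without those missing a level, had a median level of 1.20, with the 10th and 90th percentiles at -1.08 and 4.81. These shares, 34.0% and 21.2%, are the background for every family and list below. They cover every name on the array, with or without a current symbol, whereas the lists hold named genes. A gene with more probes also has more chances to count as above background. Shares over named genes alone are not given here.

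Among genes with a name, the brightest signals included those of mitochondrial genes, ribosomal proteins and the antigen presentation genes H2-Q4 and H2-Aa. Genes outside these classes, such as Exosc2, Gm885 and Ttc38, stood among them. Immunoglobulin constant probes, named by transcript alone, were also bright, with a mean of 8.57 for kappa. Of the 100 highest of all, 55 had no current symbol. The first 30 bases of some of these probes, and of those of the B-1a markers described below, are shown so that each level can be tied to its target. Positions are those the files give for the whole probe, and a span above 60 bases crosses an intron. The file places the ATP6 probe on chromosome 1 and not on the mitochondrial genome.
ATP6, chr1:24621393-24621452, minus strand: aataataggattcccaatcgttgtagccat
Rps23, chr13:91063336-91063974, plus strand: ttgtgctggaaaaagtaggggttgaggcca
H2-Aa, chr17:34421285-34421344, minus strand: tttggccaattggcaagctttgacccccaa
Immunoglobulin kappa constant, chr6:70676692-70676751, plus strand: gccactcacaagacatcaacttcacccatt
Immunoglobulin heavy constant mu, chr12:114659630-114659689, minus strand: tgtggctagtgtttgtgtggaagactggaa
Cd5, chr19:10792701-10792760, minus strand: gaccagtggggttggctttctccttggact
Cd79a, chr7:25684357-25684614, plus strand: tagaaaacaacatattaaaacgctcctgtg
Bhlhe41, chr6:145812652-145812711, minus strand: ttgaaagcgctaacagccttaactgagcag
Plscr1, chr9:92164754-92164813, plus strand: gttcccgctagacctggatgtgaagatgaa

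ATP6, a subunit of the mitochondrial ATP synthase, was the highest of the named genes, at 9.19, 9.58 and 10.46, and its rank moved between 1 and 24 over the arrays. ATP8, its neighbour in the same enzyme, stood at 8.42, 9.03 and 9.92. CYTB of complex III was at 7.68, 8.40 and 9.32. The complex I subunits ND4 and ND5 and the cytochrome oxidase subunit COX1 had medians of 8.22, 8.06 and 8.20. All 13 protein genes of the mitochondrial genome were above background on all 7 arrays, 12 of them with a mean of at least 7.03 and ND3 with 2.52. Of the 13, COX2 and COX3 were highest on set 1 replicate 2 and the other 11 on set 2 replicate 4.

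Ribosomal protein genes supplied 16 of the 100 highest. Rps23, of the small subunit, was at 7.67, 9.09 and 10.01, with set 1 replicate 2 highest and set 1 replicate 3 lowest. Rpl21, of the large subunit, was at 8.33, 8.95 and 9.86. Rpl17 was carried by 7 probes, all above background on all 7 arrays, and its brightest stood at 8.17, 8.46 and 9.14. Other large subunit genes among the 30 highest named genes included Rpl35, Rpl26, Rpl31 and Rpl12, and small subunit genes included Rps15a, Rps26, Rps25 and Rps27a, with means from 8.22 to 8.35. Rpl12 spread most, from 7.47 to 10.16, again highest on set 1 replicate 2. Over the whole family 79 of 82 members were above background on all 7, with a median level of 6.33. The 3 that were not, Rpl10l, Rpl39l and Rpl3l, are paralogs named as -like forms of Rpl10, Rpl39 and Rpl3, with median levels of -3.95, -5.47 and -5.60. Processed ribosomal pseudogenes can share these probes, and the deposited signals do not separate them.

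H2-Q4, a non-classical class I gene, stood at 8.91, 9.44 and 9.74. H2-Aa, the alpha chain of the class II molecule that presents peptide to helper T cells, was at 7.88, 8.38 and 9.13. Tpt1, an abundant translationally controlled protein, was at 8.18, 8.86 and 9.74. Exosc2 of the RNA exosome, the file's Gm885 (now Milr1) and Ttc38 stood at medians of 9.36, 9.26 and 9.13. H2-Q4, Exosc2, Gm885 and Ttc38 were lowest on set 1 replicate 2, the array on which the ribosomal genes Rps23, Rpl21 and Rpl12 were highest. The class I genes H2-K1 and H2-Q7 were also highest there, at 7.54 and 7.49, while H2-D1 and B2m were highest on set 2 replicate 4. Whether the H2-Q4 probe measured its named gene was not tested. Rn4.5s, a small repetitive-element RNA, was at 8.27, 8.74 and 8.98. Only 50 genes were among the 100 highest on all 7 arrays, and 166 genes reached that set on at least 1. Among the 30 highest named genes, 1600029O15Rik, Gm4963, 5730577I03Rik (now Fbxl12os), Gm13215 and Gm9457 are predicted or cDNA-based models, with means of 8.39 to 8.89.

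Probes of the immunoglobulin light chain, mu and gamma 3 constant regions were above background on every array, and those of gamma 1, gamma 2c and epsilon were not. Transcripts of antibody genes are the main product of B cells, and IgM is the class that B-1a cells secrete. These probes were picked out by their descriptions after values had been seen, and give no test. The kappa constant probe (ENSMUST00000103410) was at 7.77, 8.35 and 9.48. The lambda constant 2 probes had medians of 7.77 and 7.12. The heavy constant mu probe was at 6.89, 7.43 and 8.27 on all 7 arrays, and the sets overlapped. The gamma 3 probe was above background on all 7 arrays, at 1.09, 2.47 and 4.32. The gamma 1 probes were above background on 4 and 2 arrays, with medians of -3.33 and -4.89. The gamma 2c probe was above background on 4 arrays at a median of -3.37, and the epsilon probe on 1 at -4.70. Of 30 heavy variable probes 28 were above background on all 7, and of 17 kappa variable probes all 17 were. The probe that the array names Ighm was above background on 6 arrays, at -4.27, -1.40 and -0.17. Which part of the locus it covers was not checked here, so it is not read as a constant-region level.

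Of the 4 marker genes of the cells 3 were bright on every array, and Cd5 was the dimmest. Cd79a, the signalling chain of the B cell receptor, was at 6.08, 6.96 and 8.37. Bhlhe41, a repressor needed for B-1a cell maintenance, was at 3.69, 4.40 and 5.0. Plscr1, a phospholipid scramblase gene, was at 3.33, 3.84 and 4.02. All 3 were above background on all 7 arrays. The sets overlapped for Cd79a and Plscr1. For Bhlhe41 the 3 arrays of set 1 (3.69 to 4.32) lay below the 4 of set 2 (4.40 to 5.0). How many of all genes had sets apart in this way was not counted, and no gene passed the test between sets given at the end. Cd5, an inhibitory receptor and the defining surface protein of B-1a cells, was above background on 6 of 7 arrays at -3.22, -0.34 and 1.58. Its lowest value was on set 2 replicate 2 and its highest on set 2 replicate 4. The array carried 1 probe for it.

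Other genes linked with B-1a cells were mostly measured. Of 31 on the list, which was written with earlier results of these data known, 23 (74.2%) were above background on all 7 and 0 on none, beside 34.0% of all genes. S100a6, a calcium-binding protein gene, was at 6.23, 6.84 and 8.58. Vim, encoding vimentin, was at 6.84, 7.13 and 8.26. Siglecg, an inhibitory lectin of B-1 cells, was at 4.26, 4.65 and 5.78. Ctla4, an inhibitory checkpoint receptor better known in T cells, was at 3.06, 4.47 and 6.52. Il5ra, the receptor chain for a cytokine that sustains B-1 cells, was at 4.07, 4.30 and 4.88, a range of under 1 unit. Spn (CD43) and Itgam (CD11b), surface proteins by which B-1 cells are often sorted, were at 1.64, 3.87 and 4.98 and at 2.06, 2.83 and 4.37. Itgam is also made by macrophages. Il10, a regulatory cytokine gene, was above background on all 7 at -2.29, -0.68 and 1.20. Hopx, Ahr, Myo1d, Ell3 and Ccr1 were above background on 4, 5, 5, 4 and 2 arrays.

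**Figure D2:**
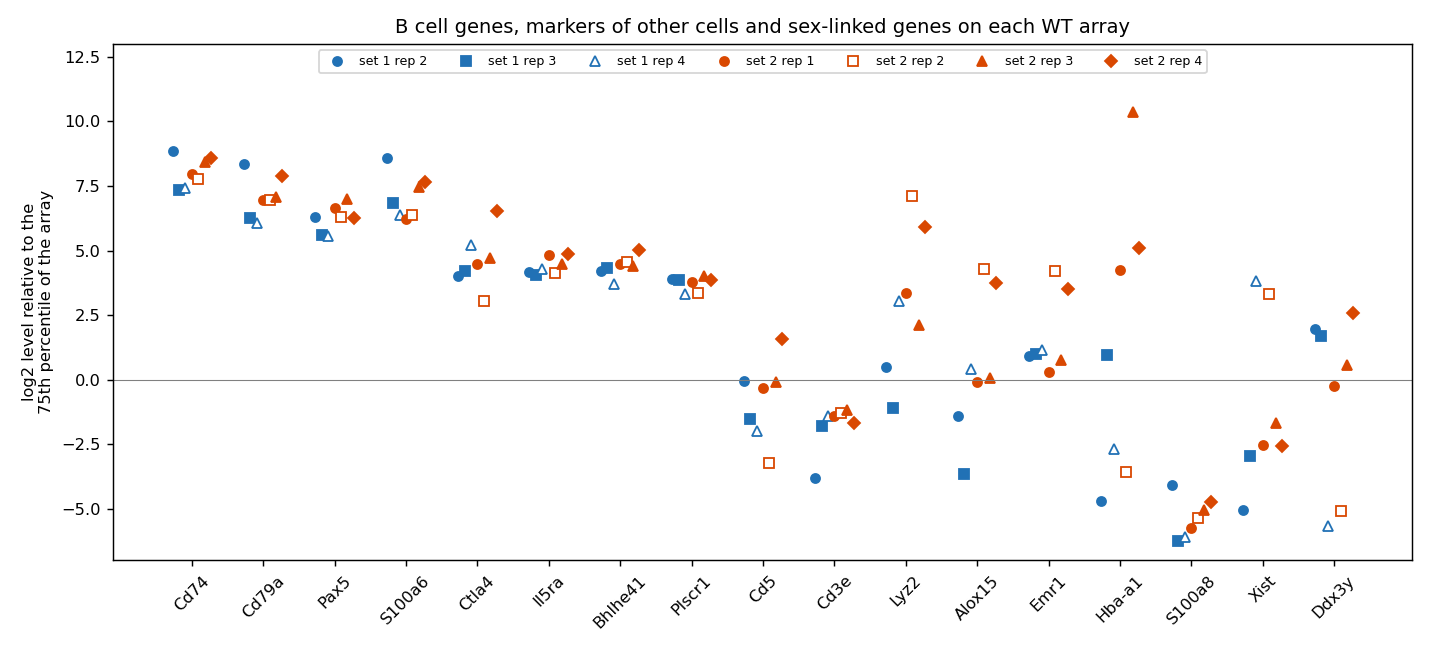
Level of 17 genes on each wild-type array (log2 relative to the array's 75th percentile). Blue symbols are the 3 arrays of set 1 and orange symbols the 4 arrays of set 2, with open symbols for set 1 replicate 4 and set 2 replicate 2, on which Xist is high. Cd79a lies between 6.08 and 8.37 on every array, Lyz2 spreads from -1.08 to 7.11 with its highest values on set 2 replicates 2 and 4, and Hba-a1 reaches 10.37 on set 2 replicate 3.

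The antigen receptor machinery was nearly complete. Of 27 genes of the receptor complex and its proximal signalling, 25 (92.6%) were above background on all 7 arrays, 2 on some, and the median level was 3.11. That list counts the probe named Ighm, above background on 6 arrays and not read as a constant-region level. Bank1, an adaptor that tunes calcium release, was at 5.80, 6.08 and 6.67. Pik3cd, the lymphocyte PI3 kinase catalytic subunit, was at 5.11, 6.05 and 7.09. Cd79b, the partner of Cd79a, was at 5.01, 5.60 and 7.99. The kinases Btk, Blk, Syk and Lyn had medians of 4.75, 4.25, 2.46 and 1.0. Fyn, another Src-family kinase, was above background on 6 arrays.

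Of 31 transcription factors of the lineage 26 (83.9%) were on all 7. Ets1 was at 6.55, 7.04 and 7.76, Foxp1 at 6.0, 6.49 and 6.93, and Klf2, a factor of lymphocyte quiescence and trafficking, at 5.40, 5.82 and 6.89. Pax5, which holds B cell identity, was at 5.55, 6.30 and 6.99, and Ebf1, which acts with it, at 3.55, 4.13 and 4.84. The sets overlapped for Foxp1, Klf2, Pax5 and Ebf1, whereas for Ets1 set 1 (6.55 to 6.77) lay below set 2 (7.04 to 7.76). How many of all genes had sets apart in this way was not counted. No gene, Ets1 included, passed the test between sets given at the end. Bcl6, the regulator of germinal centre B cells, was above background on 2 arrays with a median of -4.28. Irf4 was above background on all 7 at 0.58, 1.82 and 4.04.

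Of 24 genes listed as B cell surface antigens and their partners, among which the list also holds the transcription factor Spib, 20 (83.3%) were on all 7 arrays. The invariant chain Cd74 was at 7.36, 7.95 and 8.86, Cd37 at 6.24, 7.29 and 7.85, and Ms4a1 (CD20) at 4.23, 5.02 and 6.15. The exceptions were Cd83, Fcer2a (CD23), Fcrl1 and Cd40, above background on 6, 6, 5 and 4 arrays. Cd40, the receptor for T cell help, was at -5.01, -0.98 and 1.75. Among 22 genes of follicular and marginal zone B cells 15 (68.2%) were on all 7. They included the follicular homing receptor Cxcr5 at 4.77, 5.57 and 7.17, Notch2 at 4.63, 5.03 and 5.52, and Cr2 (CD21) at -0.58, 1.02 and 1.88. Ccr7, a lymph node homing receptor, was on 6 arrays and Rgs13 on 0.

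Antigen presentation was measured almost in full. Of 14 class II genes 13 (92.9%) and of 17 class I genes 16 (94.1%) were above background on all 7. H2-Ab1, the class II beta chain, was at 6.04, 6.58 and 7.91, and Ifi30, a lysosomal thiol reductase, at 5.78, 6.26 and 7.44. H2-Ob, which restrains peptide loading in B cells, was at 4.86, 5.51 and 6.41. The class I light chain B2m was at 6.17, 6.51 and 7.38. Ctsl, a cathepsin of other presenting cells, and H2-M3 were the exceptions, on 3 and 2 arrays.

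Toll-like receptors divided. Tlr9, a receptor for bacterial DNA in endosomes, was at 2.39, 2.94 and 4.36, Tlr1 at 0.79, 2.71 and 4.80 and Tlr7 at -0.55, 0.53 and 2.31, on all 7 arrays. Unc93b1, which carries the endosomal receptors to their compartment, was at 4.68, 5.12 and 5.76. Tlr4, the receptor for endotoxin, was on 3 arrays at -5.59, -3.08 and -0.76, while Ly96, its partner, was on all 7 at 3.46, 3.91 and 5.07. Cd180 and Ly86, a related receptor pair of B cells, were on all 7 with medians of 3.39 and 3.20. Tlr3, Tlr5 and Tlr12 were on 0 arrays. In all 12 of 23 genes (52.2%) were on all 7 and 3 on none.

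Of 32 cytokine receptors 19 (59.4%) were on all 7, led by the shared chain Il2rg at 4.32, 4.76 and 5.88. The transforming growth factor receptor Tgfbr2 was at 3.12, 3.81 and 5.02. Il7r, the receptor of B cell progenitors, was on 0 arrays at -6.35, -5.81 and -4.74. Of 36 interleukins and interferons 6 (16.7%) were on all 7, namely Il16, Ltb, Il18, Il10, Il24 and Il27, and 14 (38.9%) on none. Il16, a chemoattractant, had a median of 2.96 and Ltb, lymphotoxin beta, 2.24. Il6, Tnf, Ifng and Il12b were among the 14. The share for these ligands lay below the 34.0% of all genes. Of 16 receptors and ligands of the BAFF and APRIL axis and the TNF family 3 (18.8%) were on all 7 and 5 (31.2%) on none. Tnfrsf13b (TACI) was at 2.02, 2.99 and 3.92 and Tnfrsf13c (the BAFF receptor) at 1.34, 2.34 and 3.75. Fasl was the third on all 7, and Tnfrsf17 (BCMA), a receptor of plasma cells, was on 0.

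Chemokine receptors were seldom above background on every array. Of 19, 2 (10.5%) were on all 7: Cxcr5 and Ccr9, a gut homing receptor at -2.03, 0.85 and 1.37. Ccr6 and Ccr7 were on 6 arrays each, Cxcr3 on 3 and Cx3cr1 on 1. Of 32 integrins and homing genes 14 (43.8%) were on all 7. Itgb1 was at 5.56, 5.76 and 6.84, the egress receptor S1pr1 at 3.93, 4.62 and 5.48 and Cd44 at 2.60, 4.43 and 5.51. Itga4, an integrin chain used in tissue homing, was at 0.16, 2.42 and 3.24. Itgax (CD11c) was on 0. Cxcl11, a chemokine ligand, was on all 7 at 4.32, 4.69 and 5.08, while Cxcl10 was on 0.

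Genes of antibody secretion were measured in part. Of 23, which leave out Prdm1 as carried by repeat probes only, 15 (65.2%) were on all 7. The endoplasmic reticulum chaperone Hsp90b1 was at 5.26, 6.09 and 7.41 and the disulfide isomerase Pdia4 at 4.99, 5.89 and 6.68. Mzb1, a chaperone of IgM secretion found in B-1 and marginal zone cells, was at 1.69, 2.29 and 4.47. Igj, the joining chain of secreted IgM, was at -3.22, -1.56 and 0.63. Xbp1, the plasma cell factor, was on 4 arrays at -5.86, -2.81 and 0.05. Sdc1 (CD138), the plasma cell surface marker, was on 0 with a highest level of -4.68.

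Progenitor genes were often silent, while most cell division genes were above background on some arrays only. Of 16 progenitor and germinal centre genes 3 (18.8%) were on all 7, among them Vpreb2 and Flt3, and 8 (50%) on none, among them the recombinases Rag1 and Rag2 and the surrogate light chain Igll1. Vpreb2, a part of the surrogate light chain, was at -0.29, 0.57 and 1.32. Of 28 replication and mitosis genes 6 (21.4%) were on all 7, 19 on some and 3 on none, a smaller share on none than the 21.2% of all genes. Mcm4, a helicase subunit, was at 1.61, 3.42 and 4.80 and Mki67, the division marker, at -2.96, 1.68 and 2.91. The 3 on none were Rrm2, Aurkb and Bub1. Of 24 cyclins 8 (33.3%) were on all 7, close to the 34.0% of all genes. Ccnd2, the D-type cyclin used by B-1 cells, was at 3.73, 4.21 and 5.49, Ccnd3 at 0.92, 2.19 and 3.56 and Ccnd1 at -1.24, -0.78 and 2.86.

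Several immediate early genes were bright. Of 30 immediate early genes 15 (50%) were on all 7. Atf3 was at 3.62, 5.22 and 6.75, Jun at 3.92, 5.08 and 6.02 and Fos at 3.26, 4.42 and 6.36. These factors are induced within minutes in many cells by stimulation or by handling. Egr4 and Nr4a3 were on 0. Of 18 genes of the BCL2 family 12 (66.7%) were on all 7, led by the survival factors Mcl1 at 4.01, 4.71 and 5.99 and Bcl2 at 2.56, 3.64 and 4.39.

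Subunits of the repressive Polycomb complexes, of the kind that holds Bmi1 and of the kind built on Ezh1 or Ezh2, were on all 7 in 16 of 30 (53.3%). Kdm2b was at 2.93, 3.55 and 5.13 and Rbbp7 at 3.20, 3.43 and 5.10. Bmi1 itself was on 6 of the 7 wild-type arrays at -3.12, 1.22 and 2.09. Ezh1 was on all 7 at 1.04, 2.43 and 3.68, while Ezh2, its paralog of dividing cells, was on 0 at -6.20, -5.17 and -3.86. Cbx8 was also on 0, and Cbx7 and Cbx6 on all 7.

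Families at both ends framed these lists. All 8 Gimap GTPases of lymphocytes were on all 7, with Gimap4 at 7.07, 7.49 and 8.57. Translation initiation factors reached 82.5% of 57 and proteasome subunits 71.4% of 35. Mitochondrial ribosomal proteins stood lower, at 56.8% of 74. At the other end, with a share on none well above the 21.2% of all genes, 508 of 924 olfactory receptors (55.0%) were on none and 23 (2.49%) on all 7. Vomeronasal receptors had 63.8% of 254 on none and 1.97% on all 7. No killer lectin-like receptor of 31 was on all 7. Of 36 Hox genes 3 (8.33%) were, Hoxa13, Hoxc5 and Hoxa7. The 50 keratin-associated proteins were mixed, with 25 (50%) on none and 13 (26.0%) on all 7. Of 330 solute carriers 25.2% were on all 7 and 23.3% on none, and of 313 zinc finger Zfp genes 41.2% and 10.9%.

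**Figure D3:**
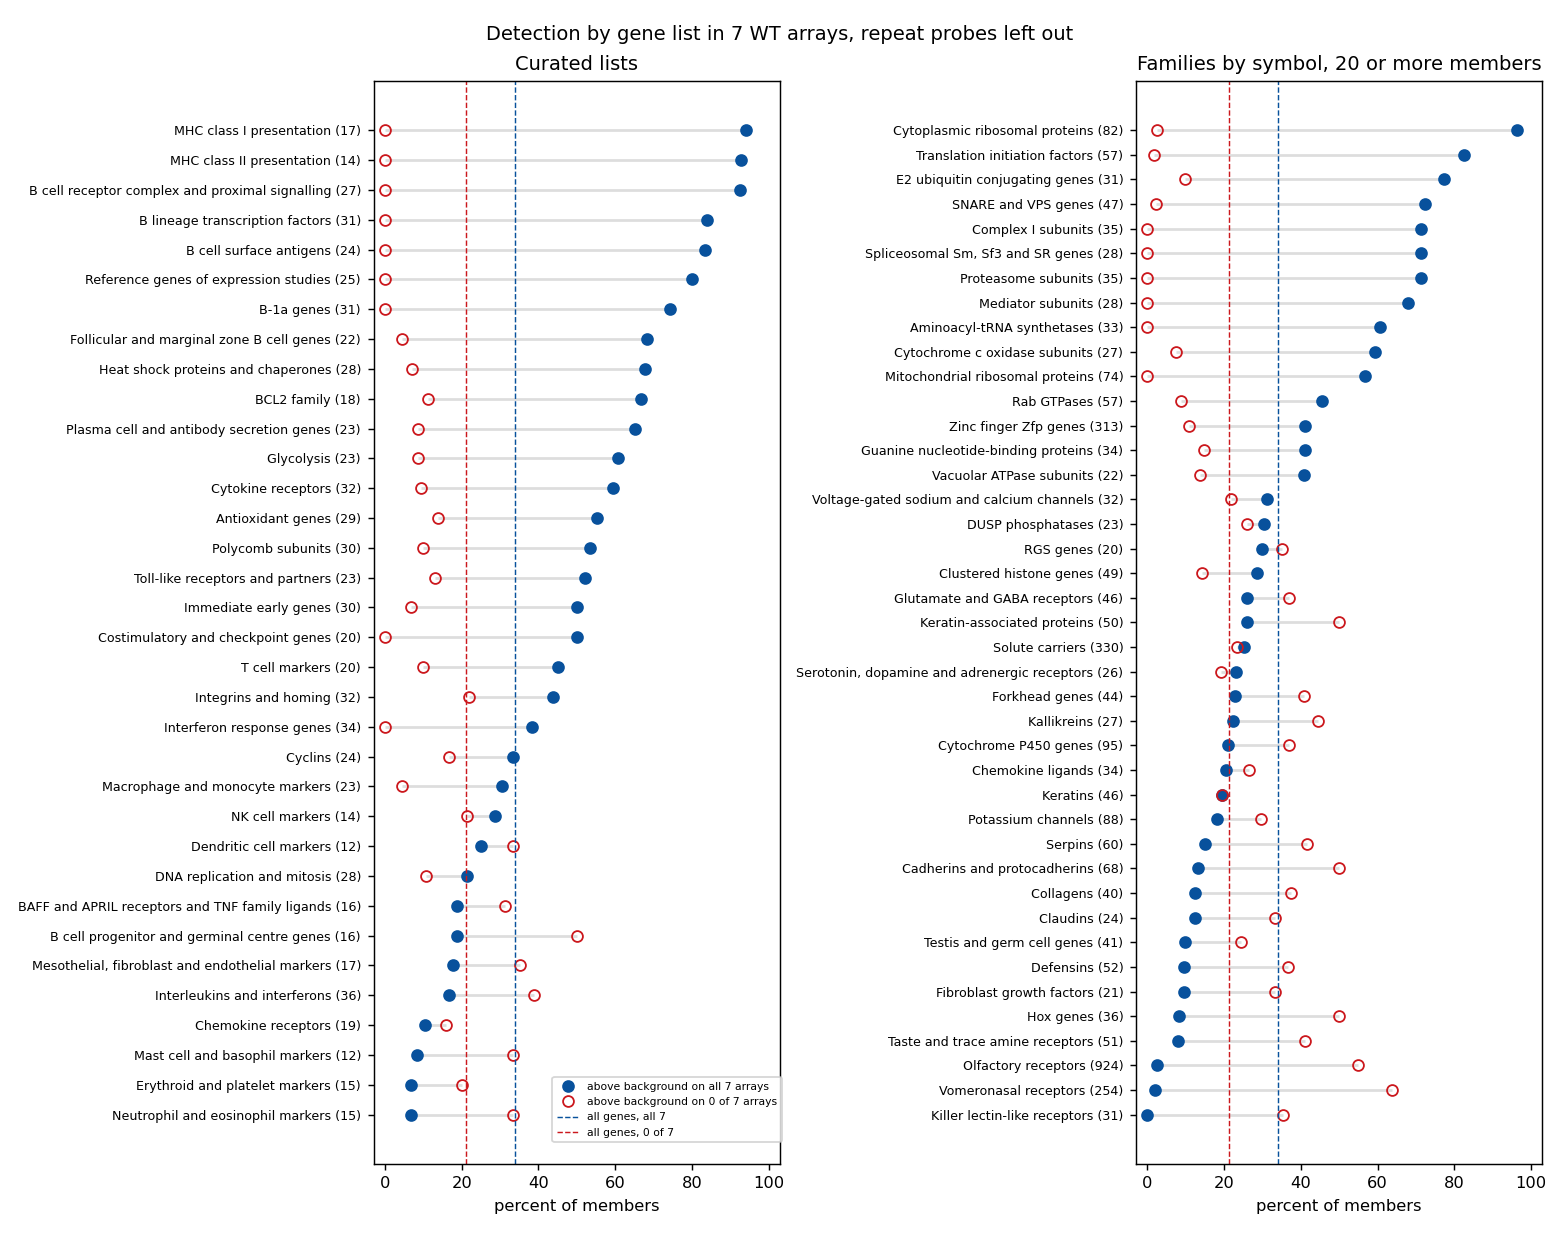
Percent of members above background on all 7 wild-type arrays (filled) and on none (open) for curated lists, left, and for families of 20 or more members, right, with the number of members in brackets. Dashed lines give the shares for all 33311 genes, 34.0% and 21.2%. Ribosomal proteins stand at 96.3% on all 7, and vomeronasal receptors at 63.8% on none.

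Some probes of families with many silent members were above background on every array. Olfr1410, an olfactory receptor gene, was at 1.46, 2.51 and 2.77 on all 7 arrays. Krtap20-2, a hair protein gene, was at 3.40, 4.36 and 4.89. Their probe windows, in which nothing is capitalised, and that of Sry, the testis-determining gene, are printed so that these levels can be set beside their letters. The first holds a short GT stretch and the second repeats a short unit.
Olfr1410, chr1:94505050-94505109, plus strand: tcatcattgtgtgtgctgtgtttgtggtca
Krtap20-2, chr16:89206222-89206281, plus strand: tatggctgtggctatggctgtggctatggc
Sry, chrY:1918394-1918453, minus strand: agctgacatcactggtgagcatacaccata

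The stretch GTGTGT, in either phase on the probe strand, was in 6 of the 32 chemosensory receptor probes above background on all 7 (18.8%) and in 20 of the other 1300 (1.54%). Over all probes without repeats it was in 5.12% of those on all 7 and 3.24% of the rest. Base composition moved with detection as well. Probes under 35% G and C were on all 7 in 11.4%, at a median level of -4.91, and those at 50% or more in 42.4%, at -1.81. Among chemosensory receptor probes the same classes had 0% and 9.80%. Sry was above background on all 7 arrays at -1.83, -0.44 and 0.06, including both arrays on which Ddx3y and Kdm5d were lowest. Whether these probes measured their named genes was not tested.

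Sex-linked genes split the arrays. Xist, which coats the inactive X chromosome in female cells, was at 3.82 on set 1 replicate 4 and 3.33 on set 2 replicate 2, and at most -1.66 on the other 5. Ddx3y of the Y chromosome was at -5.67 and -5.10 on the same arrays and between -0.25 and 2.60 on the other 5, and Kdm5d at -6.12 and -5.34 against 0.08 to 1.57. The values of these 3 genes do not overlap, and each set held both patterns. Eif2s3y, another Y-linked gene, did not split the arrays so, with -0.40 on set 1 replicate 4 and -3.92 on set 2 replicate 2 against -2.74 to 0.57 on the other 5. Ube1y1 was on all 7 arrays at 4.66, 5.32 and 5.57, with no such split.

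T cell markers were on all 7 more often than all genes, and the other marker lists less often. In bulk RNA, fewer cells of a type and less RNA per cell cannot be told apart. Of 20 T cell markers 9 (45%) were on all 7, beside 34.0% of all genes, and the median level of the 20 was -1.39 beside -2.62. They were led by Cd2 at 5.80, 6.16 and 7.37 and Cd6 at 3.21, 4.53 and 5.13, both of which B-1a cells can also carry. The other 7, Cd247, Zap70, Cd4, Lat, Lck, Cd8a and Thy1, had medians between -2.42 and 1.12. Cd3e and Cd3d, chains of the T cell receptor complex, were on 6 and 2 arrays with medians of -1.42 and -4.29, and Trat1 was on 0. The summed linear level of the 20 was 104 to 126 in set 1 and 99.4 to 199 in set 2, with 68.9% of it from Cd2. Of 14 natural killer markers 4 were on all 7 (Tbx21, Il2rb, Prf1 and Nkg7), and Klrb1c, Klrk1 and Eomes were on 0. Of 15 neutrophil and eosinophil markers Ly6g alone was on all 7, at 3.59, 3.86 and 5.44, and S100a8, Mpo and Ltf were on 0. Tpsb2 was the 1 of 12 mast cell markers on all 7, at 0.77, 1.31 and 2.58, with Kit on 0.

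Macrophage markers differed between arrays. Of 23, 7 (30.4%) were on all 7, among them Csf1r, Lyz2, Emr1, Icam2 and Alox15, and only Cd163 was on none. The median level of the 23 was -2.47. Csf1r, the growth factor receptor, kept to 2.78, 3.32 and 3.66. Lyz2, lysozyme, was at 7.11 on set 2 replicate 2 and 5.92 on set 2 replicate 4, against -1.08 to 3.34 on the other 5. Emr1, the F4/80 antigen gene, was at 4.22 and 3.51 on that pair against 0.30 to 1.14. The summed linear level of the 23 was 289 and 149 on that pair, 25.1 and 37.1 on the other arrays of set 2 and 17.7 to 32.6 in set 1. Both high arrays lay on the same slide, which held no other wild-type array.

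Globin signal stood out on a different array. Hba-a1, an alpha globin gene of red cells, was at 10.37 on set 2 replicate 3, where it was the highest of all genes, and at -4.71 to 5.09 on the other 6. Beta-s, a beta globin gene, was at 6.56 there and at most 1.95 elsewhere. The summed level of 15 erythroid and platelet markers was 1509 on that array and 0.517 to 44.9 elsewhere. Ahsp, which encodes a chaperone of alpha globin, was on 0 arrays.

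The median SD of genes whose brightest probe was above background on all 7 was 0.81, with the 10th and 90th percentiles at 0.45 and 1.42. With repeat probes it was 0.78. By level, the median SD was highest, 0.98, for means of 0 to 1. It was lower on both sides, at 0.65 for means of -3 to -2 and 0.54 for means above 7. Dim genes that fell to background on any array were left out, so the value at -3 to -2 does not describe all dim genes. For 123 probes printed 10 times and above background on all 7, the median SD was 0.0963 between spots of an array and 0.92 between arrays, and the second was larger for 123 of 123.

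Among the 15 named genes with the highest SD, Lyz2 (SD 2.87), Alox15 (2.78) and Ccl6 (2.43) are macrophage genes. Alox15, a lipoxygenase of resident peritoneal macrophages, was at 4.30 and 3.75 on set 2 replicates 2 and 4 and at most 0.42 elsewhere. Ccl6, a chemokine, was at 4.84 on set 2 replicate 2 and at 1.99 and 2.43 on set 2 replicates 4 and 1. Lyz2 and Alox15 are themselves in the summed macrophage level given above. Ccl6 did not follow that sum throughout, being higher on set 2 replicate 1 (sum 37.1) than on replicate 4 (sum 149). Others followed another order. Atp5e, a small ATP synthase subunit, had the highest SD of all, 2.89, with -2.58 on set 2 replicate 2, a median of 1.61 and 5.84 on set 1 replicate 2. Ndufa13 of complex I and Tomm5 of the mitochondrial import pore had SDs of 2.44 and 2.34. Both were highest on set 1 replicate 2, at 5.40 and 5.89, and lowest on set 2 replicate 4, at -2.12 and -1.54. Tma7-ps was also highest on set 1 replicate 2, at 6.71. Ddx20, Slc35d1, 2810013P06Rik and Snrk had SDs of 2.35 to 2.59. The first 3 of those were highest on set 2 replicate 4 and Snrk on set 2 replicate 2. Cog4, Adprhl2 and Tmem179b were also among the 15.

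**Figure D4:**
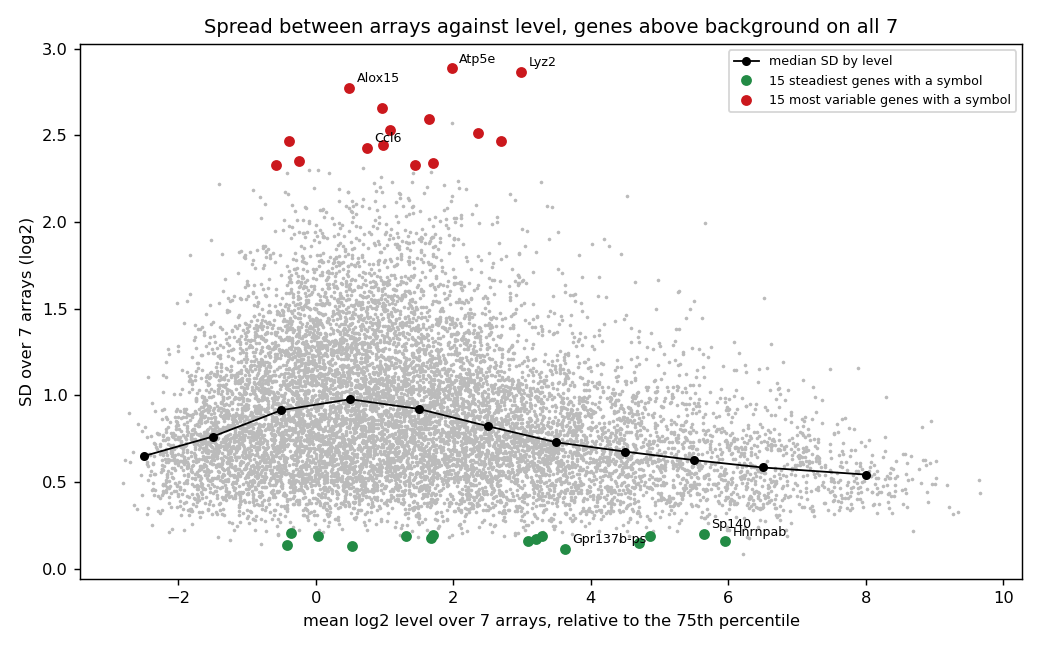
SD over the 7 wild-type arrays against mean level for genes whose brightest probe was above background on all 7 (grey). The median SD per level step is in black, and the 15 named genes of lowest and highest SD are in green and red. The median peaks at 0.98 at levels of 0 to 1 and is 0.65 at -3 to -2 and 0.54 above 7, and Atp5e, Lyz2 and Alox15 lie at 2.89, 2.87 and 2.78. Dim genes that fell to background on any array are not shown.

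At the steady end, Gpr137b-ps had an SD of 0.12, at 3.40, 3.64 and 3.73, and each of its 3 probes was above background on all 7. Hnrnpab, an RNA-binding protein gene, was at 5.71, 6.0 and 6.11 with an SD of 0.16. Sp140, a nuclear body protein gene of lymphocytes, was at 5.37, 5.63 and 6.01. Wasf2, a regulator of actin branching, was at 4.63, 4.83 and 5.14, and Pxmp4, a peroxisomal membrane protein gene, at 4.39, 4.73 and 4.84. Tenm4, Dyrk1b, Gm6987, Ppp1r21, Lrig2, LOC547349, Rab1, Foxn3 and Dhcr7 also had an SD of at most 0.20. Tas2r130, a bitter taste receptor gene, was among the 15 at -0.58, -0.43 and -0.00. With all probes kept, 7 of the 15 steadiest were on repeat probes. Of reference genes used to scale expression studies, 20 of 25 (80.0%) were on all 7. Eef1a1 was at 7.28, 7.91 and 8.52, Actb at 6.70, 7.07 and 8.54 and Gapdh at 6.01, 6.51 and 7.29, while Hprt was on 6 arrays and Ipo8 on 3.

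Probes of 1 gene often differed. Of 10423 genes with more than 1 probe without a repeat, the median range between probes was 1.85. Of the 4985 with any probe above background on all 7, 3449 (69.2%) had another that was not. A level here is that of the gene's brightest probe.

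The sets of experiments were compared across all genes, repeat probes included. The share of spots above background was 55.5% ± 10.3 (SD, n = 3) in set 1 and 49.9% ± 3.49 (SD, n = 4) in set 2, a difference of -5.60 points (two-sided exact permutation test, p = 0.343, with 0.0286 the smallest p that 35 arrangements allow). In limma, with Benjamini-Hochberg adjustment over 19875 genes, 0 genes (0%) were higher and 0 (0%) lower in set 2 at an adjusted p of 0.05, and the smallest adjusted p was 0.705. At an unadjusted p of 0.05, 820 were higher and 462 lower, 6.45% of those tested. The test took genes above background on at least 4 arrays. A gene seen only on the 4 arrays of set 2 could thus enter, and one seen only on the 3 of set 1 could not. Floor levels differed too, as for Ccne2, on 0 arrays, at -6.47 to -5.91 in set 1 and -5.88 to -4.84 in set 2. The 2 counts are therefore not read as a direction. The median gene was 0.16 higher in set 2. Klhl25, a ubiquitin ligase adaptor gene, had the largest difference among the 5 smallest p-values in that direction, with -5.90 to -3.46 in set 1 and -0.74 to 3.19 in set 2 (log2 difference 6.65, SE 1.03, limma adjusted p = 0.705). The others were Gm973, Coq6, Gm15498 and Olfr1232, and in the lower direction Nsun5, Gm5848, Thtpa, Wdr70 and Lemd2. On simulated data of the same size, changes of 2 and 4 on the log2 scale were recovered for 0 and 28 of 100 genes each, so that most shifts of those sizes between the sets would not have been detected. The sets also differed in slide and scan, and these cannot be told apart from the set for set 1, which lay on 1 slide.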

How the data were processed

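Total RNA from B-1a cells was labelled with Cy3 and hybridised to one-colour arrays of 60-base probes. Per the file headers, the authors extracted spot intensity with Agilent Feature Extraction 10.7.3.1, with its spatial and multiplicative detrending switched on, for a design annotated to mm9. The deposited marks of each spot (a score of 0 or 1 for above background, saturated or outlier) were used as given. The authors' deposited log2 value table, whose normalization the labels and headers do not state, has 1 median, 3.95, in every column, and correlates at 0.981 to 0.998 with the scanner values. It served as an alternative.

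Processed intensity was taken as log2 minus each array's 75th percentile over gene probes, spots of a probe were averaged without outliers, and a gene took its brightest probe. Of the 55681 probes, 27598 were matched to RefSeq by accession and 3493 by symbol, and the other 24590 kept the file's name. The sets were compared with limma 3.58.1 in R 4.3.3, on genes above background on at least 4 arrays. Other steps used Python 3.11.15, numpy 2.4.6 and pandas 2.3.3. The number of arrays limits precision. The script was tested on simulated data.

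Genes named are the 4 markers, the 30 highest named genes, up to 6 leading members of each list and the detected members of mostly silent ones, the 15 steadiest and 15 most variable, and 5 genes per direction between sets. Others were named after their values were seen. The members and lists were chosen with earlier results of these data known. The rule on repeat probes and the immunoglobulin probes were chosen after seeing the data. Alternatives changed the scaling, background correction, detection call, probe summary, slide block, replicate block and the arrays included. Some genes that these rules select are not reported here.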

Additional observations from a re-analysis of the deposited data

Results flagged for a closer look

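Of 76 values or gene levels tested over the 7 wild-type arrays, 4 had an array far from the others, judged by its gap to the nearest array as a share of the whole range. Chance gives about 1 in 20 for independent items not picked by their values. These items include genes picked by their SD or level over the same arrays and sums that share genes, so that rate is no yardstick here. The summed level of T cell markers (log2) had a ratio of 0.660, with set 2 replicate 4 at 7.64 against a median of 6.70. Pxmp4 had a ratio of 0.650, with set 1 replicate 2 at 4.39 against 4.73. Foxn3 had 0.621, with set 2 replicate 3 at 2.90 against 3.35. Cog4, of the Golgi tethering complex, had 0.635, with set 2 replicate 2 at -2.79 against 2.59. Pxmp4 and Foxn3 are among the steadiest genes, so these gaps are small in absolute terms.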

How the results depend on the processing

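Counts of detected, silent and top-ranked genes stayed within 1.5 times, and the median SD within 1 standard error, under the scalings, probe summaries and detection calls tried, except that the median SD was 0.62 with normexp background correction. The cause was not tested. With all probes, leaving out 1 array at a time gave 12468 to 13746 genes above background on all, 7316 to 8554 on none, 71 to 77 shared among the 100 highest, a median SD of 0.69 to 0.82, a difference between the sets in the share above background of -11.5 to -1.76 points, and 0 to 0 genes called between the sets in either direction. The setting without repeat probes, chosen after seeing the data, gave 50 shared among the 100 highest in place of 71. In that setting, leaving out 1 array at a time gave 11323 to 12567 genes above background on all, 7202 to 8354 on none, 50 to 67 shared among the 100 highest (67 without set 1 replicate 2) and a median SD of 0.71 to 0.85. With the replicate number as a replicate block, limma called 0 genes higher and 0 lower, with 649 and 564 at an unadjusted p of 0.05. Deviations of same-numbered arrays correlated at -0.05, -0.05 and -0.09. With so few arrays per set, these values cannot settle whether same-numbered arrays shared an animal, a pool or a preparation, which the labels do not say. The slide as a random block, with a correlation of -0.18, also called 0, with 1500 higher and 896 lower at an unadjusted p of 0.05. Without the filter on dim probes 0 were called, with 2489 and 652. Signal over background limits what can be said of genes near the detection call, since the dimmest levels have no order.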

Other observations

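Gabra3, a subunit of a neuronal chloride channel, was above background on all 7 arrays at 3.74, 4.66 and 5.74, and Cldn15, a tight junction gene, at 4.66, 5.40 and 5.91. They stood out in the glutamate and GABA receptor family, where 12 of 46 genes (26.1%) were above background on all 7, and among claudins, where 3 of 24 (12.5%) were. Hist1h3d, a core histone gene, was at 4.66, 5.07 and 5.64, above the other histone genes measured on all 7. Cd300lf, an inhibitory receptor gene, was at 4.61 on set 2 replicate 4 and at 0.45 to 1.59 on the other 6 arrays. The Malat1 probe was at -0.75, 0.13 and 0.64. These genes were chosen after their values were seen.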
